A study of Arabidopsis thaliana with 6 samples.

Results

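The pepsin-like aspartic proteases of Arabidopsis thaliana were compared between seedlings labelled wild type and seedlings of a transgenic line labelled ASL9-ox. Members were chosen from a list of 60 loci of this protease family, and a member was measured where the array annotation paired a probe set (a group of short oligonucleotides read together) with that gene alone. This was so for 49 genes, each with 1 probe set, among 13333 genes of the whole array covered in the same way. Of the 11 others, AT1G03220 and AT1G03230 share 1 probe set and were not told apart, and AT2G28040, AT2G35615, AT3G25700, AT3G51340, AT5G10080, AT5G10760, ASPG1 (AT3G18490), PCS1 (AT5G02190) and CDR1 (AT5G33340) were not analysed here.

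All 6 samples were seedlings aged 2 weeks that had grown upright on agar plates with a basal salt medium. The tissue was labelled as aerial parts, and the extraction protocol speaks of seedlings without saying that roots were removed. The 3 control samples were accession Col-0 with the genotype wild type and stock code N1092, and the 3 others carried a transgene that overexpresses ASL9, a plant-specific LBD transcription factor. The promoter that drives the transgene, the number of independent lines and the background accession of the transgenic seedlings are not stated in the labels. The question of the comparison was how transcript levels in the transgenic seedlings depart from those of the wild type.

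Pepsin-like aspartic proteases cut peptide bonds with a pair of aspartate residues that activate a water molecule, and they work best at acid pH. Most are made as inactive precursors that enter the secretory pathway and end up in the vacuole, the cell wall or the plasma membrane. Plants have an enlarged family, with roles in protein turnover in the vacuole, seed and pollen development, disease resistance signalling and, for a few members, work inside the chloroplast.

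RNA was hybridised to Affymetrix ATH1 arrays, 1 per sample, and the signal is a linear brightness that the authors had scaled to the same trimmed mean of 100.01 on every array. Fold changes are on the log2(signal + 16) scale, which compresses the folds of dim genes, and the added 16 sets the fold where a group lies near or below that signal. A gene "rose" or "fell" where its level was higher or lower on the arrays that carry the label ASL9-ox and its adjusted p in limma's moderated test was below 0.05, by Benjamini-Hochberg over all 17059 probe sets tested. ASL9 itself had 0 probe sets in the annotation used, so the labels were not checked by its level, and every direction rests on them. The probe set with the largest change of all those tested has no gene name here and read 4914 to 5195 on the arrays labelled wild type and 7.22 to 14.3 on the others. Which gene it reads was not resolved, and whether the group labels are the right way round was not tested. The array labelled wild type replicate 2 scattered most about its group mean, with a residual SD of 0.228 (log2) where the other 5 arrays had 0.128 to 0.160, and its effect on a member is given where it changed a result. Leaf markers were abundant on all arrays, with summed signals of the 5 measured ones between 11984 and 13400 (labelled wild type) and between 17588 and 18500.5 (labelled ASL9-ox). All 5 rose, where 24.6% of all probe sets tested rose, but only 4 did with centring on hybridization controls and 4 without wild type replicate 2; RCA (log2 fold change 0.18, limma adjusted p = 0.0402) passed under 6 of 17 alternatives.

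The protease genes changed in both directions: of 37 tested, 12 rose and 12 fell, where 41.6% of all probe sets tested changed. On the log2(signal + 16) scale the largest rises were those of AT5G07030 and AT1G09750, which encode proteases of the type found in the cell wall space, and the largest falls those of the vacuolar protease gene AT4G04460 and the chloroplast protease gene NANA (AT3G12700). These 37 were the ones bright enough to be tested among the 49 measured, and the other 12 lay at or below a signal of 11.9 on every array. Those that rose made up 32.4% of the 37, where 24.6% of all probe sets tested rose, and those that fell made up 32.4%, where 17.0% of all fell. The share that rose was near that of the array as a whole, and only tested members could be counted. Members were chosen with earlier results of these data known, so shares above those of the array, here and below, are no test of the family.

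Falls were the larger changes. At least 2-fold lower were 6 of the 37 (16.2%), against 4.53% of all probe sets tested, and at least 2-fold higher were 2 (5.41%), against 2.61% (7.14% in either direction). Among the 6, AT5G19110 and AT2G03200 lay below 16 on all arrays labelled ASL9-ox. With a pseudocount of 64, 4 members in either direction changed at least 2-fold. At least 4-fold lower were 2 members and at least 4-fold higher 1, beside 1.34% and 0.258% of all. The median log2 fold change of the 37 was 0.10, beside 0.08 over all probe sets tested, and the median size of the change without regard to sign was 0.42, beside 0.24. In each of the 24 genes that passed, the 3 arrays of a group did not overlap with those of the other, as was also so in AT1G01300, which did not pass; groups were apart in this way for 54.0% of all probe sets tested (32.8% higher and 21.2% lower).

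**Figure D1:**
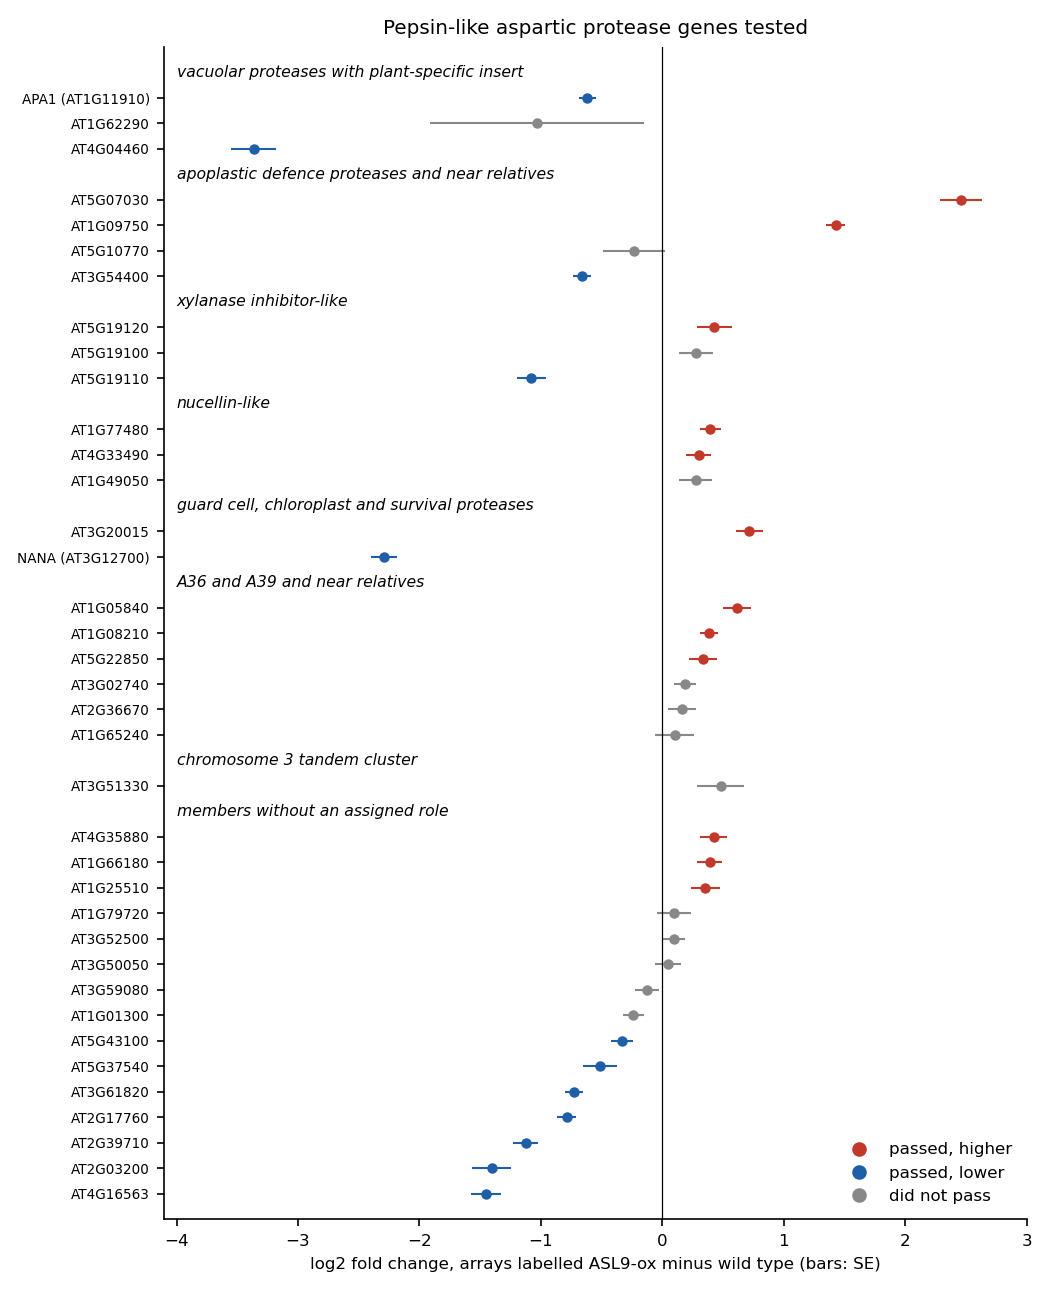
Log2 fold change (arrays labelled ASL9-ox minus arrays labelled wild type, on the log2(signal + 16) scale) of the 37 tested protease genes, ordered by role; points are the fitted values, bars their standard errors, and colours show whether the gene passed. AT5G07030 and AT1G09750 lie farthest to the right, AT4G04460 and NANA farthest to the left, and AT1G62290 has the widest bar.

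The number of members that rose depended on how the arrays were scaled. When the arrays were centred on 9 bacterial and phage control probe sets added at hybridization, 4 members rose and 13 fell, and over all probe sets 13.8% then rose and 18.2% fell in place of 24.6% and 17.0%. The mean log2 signal of these controls was 0.0925 higher in the arrays labelled ASL9-ox, and the 8 rises lost under this scaling had been 0.30 to 0.43 in size. The 4 that still rose were AT5G07030, AT1G09750, AT3G20015 and AT1G05840, and the 13 falls were the 12 above and AT1G01300.

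**Figure D2:**
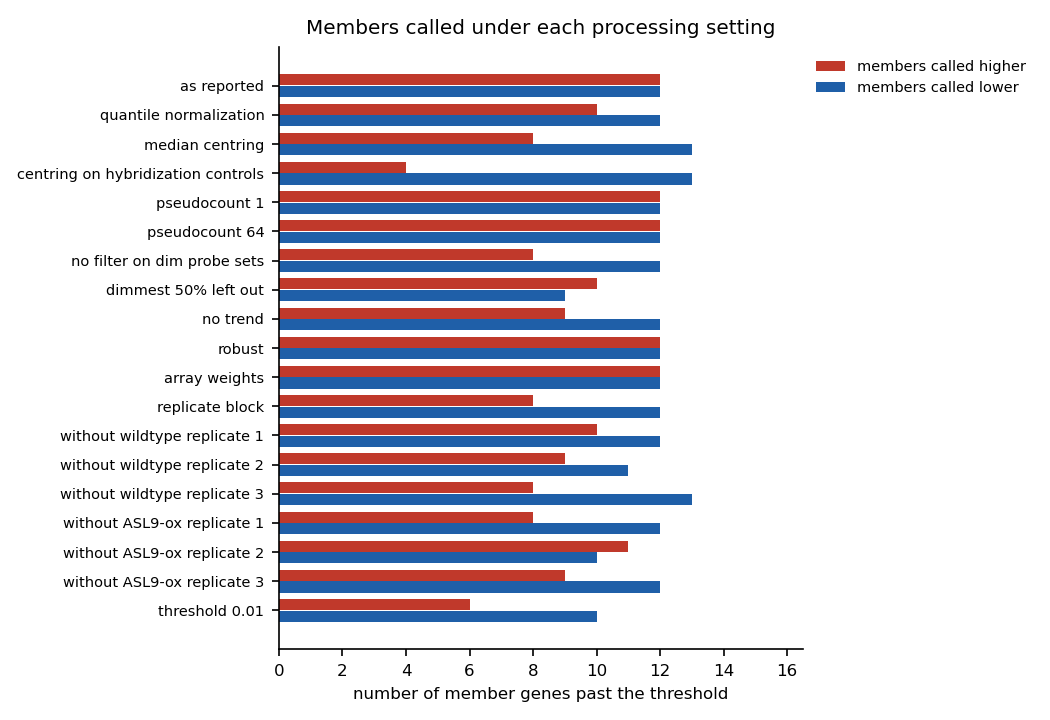
Number of protease genes that passed as higher or as lower in ASL9-ox (horizontal bars, from 0) under the reported processing and 18 alternatives. The number lower stays between 9 and 13, and the number higher runs from 4 with centring on hybridization controls to 12.

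Among the vacuolar proteases, which carry an extra domain known as the plant-specific insert, 2 of 3 fell and none rose (0 of 3). Over all probe sets tested 17.0% fell and 24.6% rose, and 3 genes are too few to set against these shares. AT4G04460 had the largest fall of all members. Its signals were 247, 462 and 317 on the arrays labelled wild type and 18.4, 19.7 and 15.2 on those labelled ASL9-ox. All 3 of the latter lay near the added 16, and the ranges were far apart. The log2 fold change was -3.36 ± 0.18 (SE, n = 3 per group; limma adjusted p = 1.62e-06), and the ratio of the mean signals was 19.3.

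APA1 (AT1G11910), the best studied of these enzymes and active in the vacuoles of many tissues, fell as well. It read 2525, 2819.9 and 2591 on the arrays labelled wild type, and 1660.2, 1804 and 1693 on those labelled ASL9-ox. The drop was shallow but uniform, since replicates differed by far less than the groups. Its log2 fold change was -0.62 ± 0.07 (SE, n = 3 per group; limma adjusted p = 1.01e-04).

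The third gene of this type, AT1G62290, did not pass, and its value was set by a single array. It read 766 on wild type replicate 2 but 48.95 and 24.5 on wild type replicates 1 and 3, and 45.2, 42.8 and 50.7 on the arrays labelled ASL9-ox. The log2 fold change was -1.03 ± 0.88 (SE; limma adjusted p = 0.381) over all arrays and 0.28 ± 0.18 (SE; limma adjusted p = 0.272) without wild type replicate 2. On that array 3 of the 3 measured seed markers were high too. OLEO3, a gene of seed oil bodies, had a signal of 504 on it and at most 9.88 elsewhere, the storage protein gene PAP85 read 806 and at most 3.76 elsewhere, and AT3G15670, which belongs to the late embryogenesis abundant genes, read 309 and at most 5.06 elsewhere. The summed signal of these markers was 1619 on that array, 8.65 and 11.4 on the other arrays labelled wild type, and 12.5 to 14.1 on those labelled ASL9-ox.

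BETA-VPE (AT1G62710), a vacuolar processing enzyme that matures storage proteins in seeds, followed the same pattern. It read 144 on wild type replicate 2 and between 24.6 and 42.8 on the other 5 arrays. With AT1G62290 left out, the residual SD of the other 36 tested members was 0.172 on wild type replicate 2 and 0.176 on replicate 1 (log2 scale). It was lower on wild type replicate 3, at 0.085, and on the arrays labelled ASL9-ox, at 0.139 to 0.150. AT4G04460 was highest on replicate 2 within its group, but its fall was also seen without that array (log2 fold change -3.13 ± 0.13, SE).

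**Figure D3:**
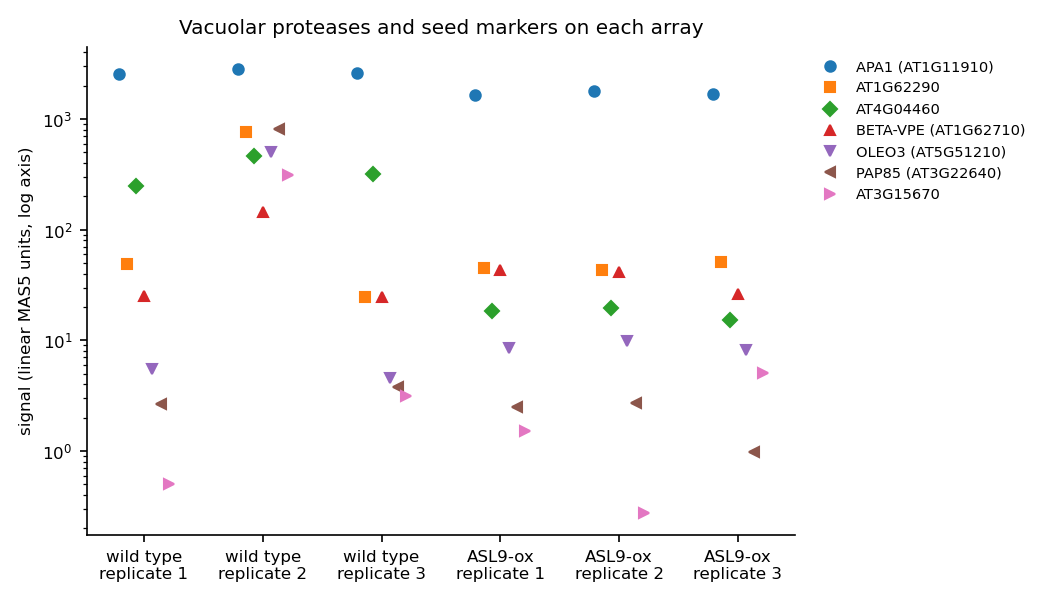
Signal (log axis) of the 3 vacuolar proteases with a plant-specific insert, of BETA-VPE and of 3 seed marker genes on each of the 6 arrays; each symbol is 1 array. AT1G62290, BETA-VPE and the 3 seed markers are high on wild type replicate 2 alone, whereas AT4G04460 is high on all 3 arrays labelled wild type.

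The 2 largest rises came from the genes grouped with proteases of the apoplast, the space between cells. Of the 4 tested in this group, 2 rose, 1 fell and 1 did not pass. Over all probe sets tested 24.6% rose and 17.0% fell, and 4 genes are too few to set against these shares. AT5G07030 read 152, 79.4 and 101 on the arrays labelled wild type and 624, 708 and 654 on those labelled ASL9-ox. The lowest of the latter was well above the highest of the former. Its log2 fold change was 2.46 ± 0.17 (SE, n = 3 per group; limma adjusted p = 7.29e-06), a 5.98-fold ratio of mean signals.

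AT1G09750 encodes a secreted protein known from the cell wall fluid of leaves that have acquired systemic resistance. It read 698, 585 and 636 on the arrays labelled wild type and 1790.5, 1794 and 1647 on those labelled ASL9-ox. Replicates of a group lay close together, and the groups were far apart. It rose by 1.43 ± 0.08 (SE; limma adjusted p = 1.69e-06), a 2.73-fold ratio of mean signals.

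AT3G54400, placed in the same group, went the other way. Its signals were 946, 1053 and 1066 on the arrays labelled wild type and 607, 671 and 642 on those labelled ASL9-ox, without overlap, a log2 fold change of -0.66 ± 0.07 (SE; limma adjusted p = 1.18e-04). The fourth measured member, AT5G10770, resembles a tobacco protease of chloroplast nucleoids and did not pass, with signals between 18.4 and 61.3 that overlapped between the groups (log2 fold change -0.23 ± 0.25). Without wild type replicate 2, its highest array, the value was 0.045 ± 0.20.

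NANA (AT3G12700), a chloroplast protease whose loss alters carbohydrate metabolism, fell with the smallest adjusted p of the family. It read 255, 312 and 277 on the arrays labelled wild type and 53.35, 39.2 and 42.1 on those labelled ASL9-ox. Both groups lay above 16, and the size of the fall still depended on the number added, with a log2 fold change of -2.63 with a pseudocount of 1 and -1.67 with one of 64. The log2 fold change was -2.29 ± 0.11 (SE, n = 3 per group; limma adjusted p = 7.38e-07), and the mean signal was 6.27 times lower.

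AT3G20015, a near relative of the guard cell protease ASPG1, rose. Its signals were 31.1, 19.7 and 25.1 on the arrays labelled wild type and 53.5, 49.15 and 51.9 on those labelled ASL9-ox. The signals were modest, and the lowest array labelled ASL9-ox was still above the highest labelled wild type. The log2 fold change was 0.72 ± 0.11 (SE; limma adjusted p = 9.70e-04).

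The neighbouring loci AT5G19100, AT5G19110 and AT5G19120 encode proteins that resemble xylanase inhibitors of wheat. Of these 3, 1 fell, 1 rose and 1 did not pass, where 17.0% of all probe sets tested fell and 24.6% rose. AT5G19110 read 30.7, 25.02 and 27.1 on the arrays labelled wild type and 5.7, 5.9 and 2.4 on those labelled ASL9-ox. It fell by 1.08 on the log2 scale (SE 0.12, limma adjusted p = 1.05e-04), with the lower group below 16. The size of this fall was set by the number added, at -2.40 with a pseudocount of 1 and -0.42 with one of 64. AT5G19110 was bright enough to be tested only through the arrays labelled wild type, so its p-value is not separate support for a fall. AT5G19120 read 412, 527 and 550.01 on the arrays labelled wild type and 833, 621 and 579 on those labelled ASL9-ox.

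The gap between the groups of AT5G19120 was narrow beside the spread within them. It rose by 0.43 ± 0.15 (SE; limma adjusted p = 0.0414), and it passed under 9 of 17 alternatives at the same threshold, where its adjusted p ran from 0.0291 to 0.154. Among those that lost it were the exclusions of wild type replicate 1, ASL9-ox replicate 1 and ASL9-ox replicate 2 (adjusted p = 0.132, 0.125 and 0.0530). AT5G19100 had a log2 fold change of 0.28 and did not pass (limma adjusted p = 0.145), with signals from 10.9 to 27.2.

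Of 4 nucellin-like genes, named after a barley protease of dying nucellus cells, 3 were tested and 2 of these rose by small amounts. Over all probe sets tested 24.6% rose. With centring on hybridization controls neither of the 2 passed (limma adjusted p = 0.0690 for AT1G77480 and 0.215 for AT4G33490). AT1G77480 read 50.4, 54.8 and 56.3 on the arrays labelled wild type and 69.3, 77.0 and 81.3 on those labelled ASL9-ox (log2 fold change 0.39 ± 0.09, SE; limma adjusted p = 0.00604). AT4G33490 read 65.75, 63.4 and 65.1, and then 83.2, 71.35 and 97.2 (0.30 ± 0.10; limma adjusted p = 0.0432). In the latter the arrays labelled wild type were nearly equal and those labelled ASL9-ox were spread out, and it passed under 6 of 17 alternatives (0.0146 to 0.215), being lost without each array in turn except ASL9-ox replicate 2. AT1G49050, whose product cleaves the co-chaperone BAG6 in immunity, had a log2 fold change of 0.27 ± 0.14 and did not pass (limma adjusted p = 0.136), and it passed without ASL9-ox replicate 2 (0.0190). AT1G44130 was too dim to test.

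A36 (AT5G36260) and A39 (AT1G65240) are membrane-anchored proteases of pollen that act in pollen tube growth, and both were near the bottom of the scale, at no more than 3.3 and 13.1 on any array. A39 was tested and did not pass. Of their 5 near relatives, 3 rose and none fell (0 of 5), where 24.6% of all probe sets tested rose and 17.0% fell. With centring on hybridization controls AT1G05840 alone of these 3 still rose, and AT1G08210 no longer passed (limma adjusted p = 0.0705). AT1G05840 read 49.15, 54.3 and 46.6 on the arrays labelled wild type and 87.4, 99.8 and 70.5 on those labelled ASL9-ox, a rise of 0.62 ± 0.12 (SE; limma adjusted p = 0.00243). AT1G08210 read 72.3, 72.7 and 72.6, and then 101, 103 and 96.1, a rise of 0.39 ± 0.07 (limma adjusted p = 0.00288).

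Neither gene overlapped between the groups. AT5G22850 lay just inside the threshold, with 57.1, 44.1 and 39.6 on the arrays labelled wild type and 59.3, 69.25 and 60.1 on those labelled ASL9-ox (0.33 ± 0.12; limma adjusted p = 0.0444). Wild type replicate 1 came close to the lowest array of the other group, and the call was lost without any other single array. Its adjusted p was 0.0116 without wild type replicate 1 and at most 0.153 over the alternatives. AT3G02740 and AT2G36670 had log2 fold changes of 0.19 and 0.16 and did not pass.

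All 6 measured relatives of CDR1, a secreted protease whose activity triggers defence signalling, were too dim to test (0 of 6 tested). AT1G64830, AT1G31450, AT2G28010, AT2G23945, AT4G30030 and AT4G30040 together had summed signals of 12.0045 to 19.99 on the arrays labelled wild type and 12.9 to 26.3 on those labelled ASL9-ox. The ranges of this sum overlapped, and without detection calls these signals could not be set against background. The probe set of AT2G28010 is of a type that may also read other transcripts.

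The 4 neighbouring loci AT3G51330 to AT3G51360 on chromosome 3 gave 3 measured genes. AT3G51330 read 6.2, 5.9 and 6.6 on the arrays labelled wild type and 18.8, 6.2 and 22.7 on those labelled ASL9-ox. Only ASL9-ox replicates 1 and 3 were raised, and replicate 2 lay within the range of the other group. The log2 fold change was 0.48 ± 0.19 (SE, limma adjusted p = 0.0749). Without ASL9-ox replicate 2, the array of that group that was not raised, it was 0.72 ± 0.13 (limma adjusted p = 0.00281). That was its 1 pass under 16 alternatives at the same threshold. AT3G51330 was bright enough to be tested only through ASL9-ox replicates 1 and 3, so these p-values are not support for a rise. AT3G51350 and AT3G51360 were too dim to test.

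Of the 15 tested members without an assigned role, the largest of the role groups, 7 fell and 3 rose, where 17.0% of all probe sets tested fell and 24.6% rose. AT4G16563 read 79.6, 104 and 94.1 on the arrays labelled wild type and 30.1, 20.5 and 20.6 on those labelled ASL9-ox, a fall of 1.45 on the log2 scale (SE 0.12; limma adjusted p = 2.31e-05). AT2G03200 read 40.3, 49.7 and 42.7, and then 1.5, 10.6 and 9.1 (-1.40 ± 0.16; limma adjusted p = 1.38e-04). All 3 arrays labelled ASL9-ox lay below 16 for AT2G03200, so its fold depends on the number added.

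AT2G39710 read 119, 126 and 120.35 on the arrays labelled wild type and 41.4, 44.1 and 56.8 on those labelled ASL9-ox (-1.13 ± 0.10, SE; limma adjusted p = 3.32e-05). AT2G17760 was nearly constant within groups, with 125, 124 and 124 against 61.5, 69.7 and 64.9 (-0.79 ± 0.08; limma adjusted p = 5.41e-05). AT3G61820 was a bright gene, with 578, 509 and 536 against 305, 330.1 and 327 (-0.73 ± 0.07; limma adjusted p = 7.23e-05). In these 3 genes the gap between the groups was wider than the whole range within either group.

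The remaining falls were small. AT5G37540 read 29.7, 42.8 and 30.8 on the arrays labelled wild type and 23.8, 14.4 and 19.6 on those labelled ASL9-ox (-0.51 ± 0.14, SE; limma adjusted p = 0.0156), and without ASL9-ox replicate 2 its adjusted p was 0.0508. AT5G43100 read 62.3, 65.2 and 56.9 against 45.7, 41.5 and 49.8 (-0.33 ± 0.09; limma adjusted p = 0.0173), and its adjusted p was 0.0584 without wild type replicate 2 and also 0.0584 without ASL9-ox replicate 2. AT1G01300 lay just outside the threshold, with 419, 397 and 340.4 against 331, 305 and 334 (-0.24 ± 0.09; limma adjusted p = 0.0584). Its groups did not overlap, and it passed without wild type replicate 3, its lowest in that group (0.0231).

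Rises among the unassigned members were of similar small size. AT4G35880 read 24.5, 30.5 and 26.6 on the arrays labelled wild type and 39.3, 37.5 and 49.6 on those labelled ASL9-ox (0.42 ± 0.11, SE; limma adjusted p = 0.0130). AT1G66180 read 144, 167 and 137 against 222, 204 and 177 (0.39 ± 0.10; limma adjusted p = 0.0143), and its adjusted p was 0.0594 without wild type replicate 3 and 0.0535 without ASL9-ox replicate 1. AT1G25510 read 21.1, 15.65 and 15.8 against 23.3, 24.98 and 32.5 (0.35 ± 0.12; limma adjusted p = 0.0412). Signals of AT1G25510 lay near 16, and it passed under 8 of 16 alternatives (0.0324 to 0.139), being lost without wild type replicate 2 or 3 and without ASL9-ox replicate 2 or 3. AT1G79720, AT3G50050, AT3G52500 and AT3G59080 had log2 fold changes of 0.10, 0.05, 0.09 and -0.13 and did not pass.

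**Figure D4:**
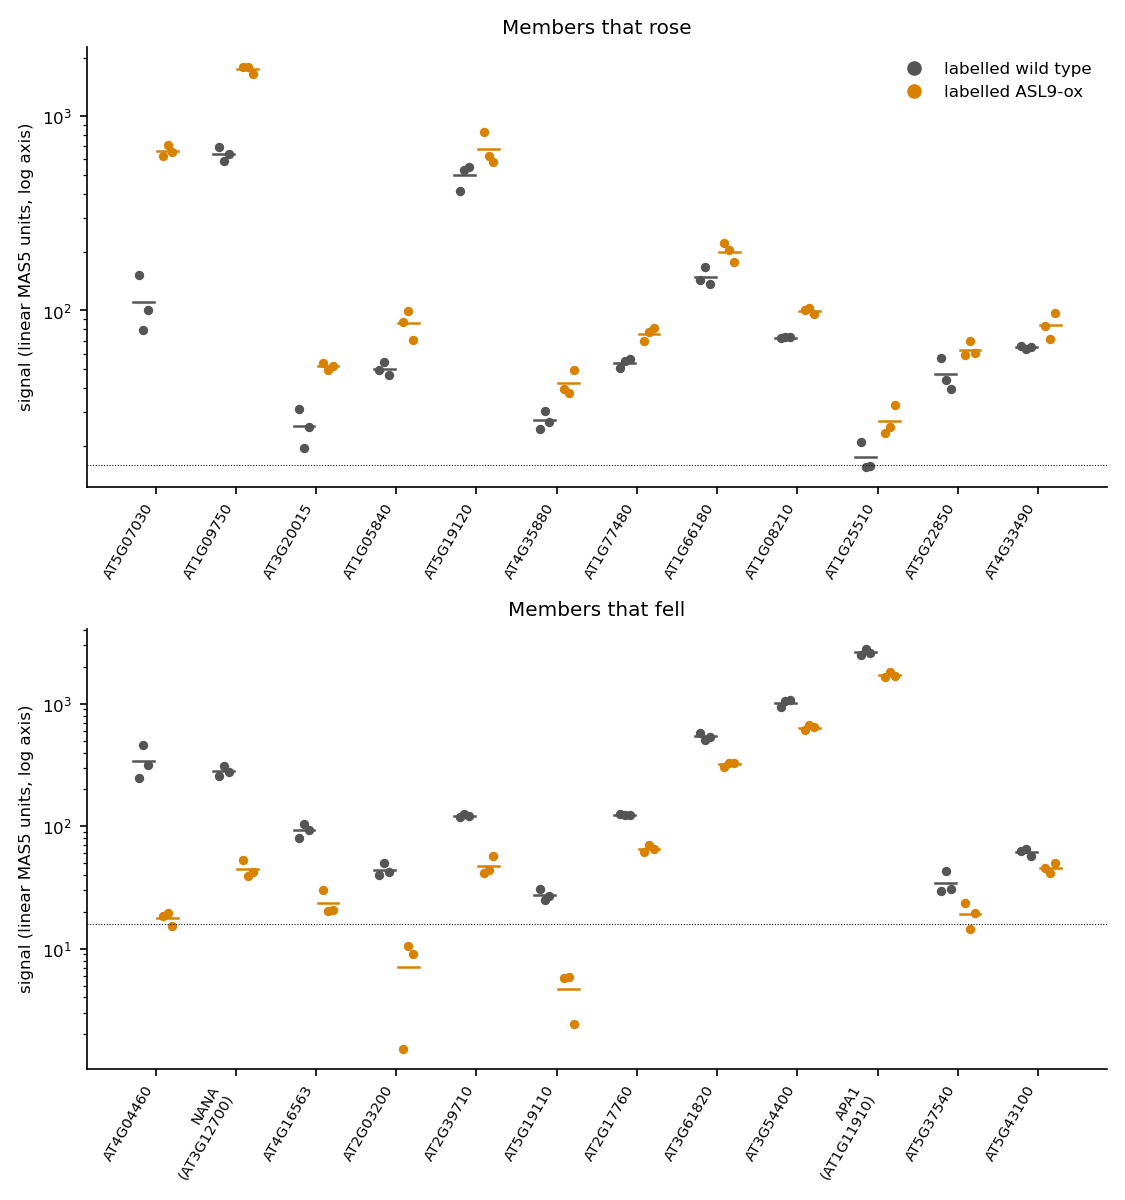
Signal on each array (points, log axis) and group means (horizontal lines) of the 12 protease genes that rose and the 12 that fell, each panel ordered by the size of the log2 fold change; the dotted line marks the added signal of 16. Groups do not overlap in any of the 24 genes, and AT2G03200 and AT5G19110 lie below the dotted line on all 3 arrays labelled ASL9-ox.

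Other protease families that share the vacuole and the cell wall with the pepsin-like enzymes were set beside them. Of 9 tested papain-like cysteine protease genes, 4 fell and 2 rose (17.0% and 24.6% of all probe sets tested). The cathepsin B-like gene AT4G01610 fell from 1216 ± 42.4 to 491 ± 57.5 (SD, n = 3 per group), and AT3G45310, an aleurain-like gene, fell from 290.1 ± 18.7 to 154 ± 1.11. The third by size of change was AT3G19390, at 22.3 ± 5.12 and then 5.23 ± 1.48, with the latter below 16. Their limma adjusted p-values were 6.44e-06, 2.75e-05 and 7.99e-04. AT3G19390 was bright enough to be tested only through the arrays labelled wild type, so the last of these p-values is not separate support for a fall.

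Among the vacuolar processing enzymes, which activate other vacuolar proteases, GAMMA-VPE (AT4G32940) rose and ALPHA-VPE (AT2G25940) fell. GAMMA-VPE, known from vegetative tissue and cell death, went from 342 ± 12.6 to 669 ± 61.0 (SD, n = 3 per group; limma adjusted p = 2.61e-05). ALPHA-VPE went from 19.8 ± 3.04 to 1.90 ± 1.37 (limma adjusted p = 2.07e-04), a range near or below 16. It was bright enough to be tested only through the arrays labelled wild type, so its p-value is not separate support for a fall. BETA-VPE, described above, did not pass.

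Of 13 tested genes for subtilases, serine proteases of the cell wall, 4 rose (30.8%) and 3 fell (23.1%), shares near the 24.6% and 17.0% of all probe sets tested. SBT3.5 (AT1G32940), which processes a pectin methylesterase, fell from 459 ± 73.3 to 33.6 ± 3.34 (SD, n = 3 per group; limma adjusted p = 1.24e-07). AT2G39850 rose from 15.2 ± 6.36 to 148.5 ± 14.6 (limma adjusted p = 2.80e-06). SBT4.12 (AT5G59090) fell from 71.9 ± 13.6 to 4.84 ± 1.58 (limma adjusted p = 3.40e-06), the latter below 16. SBT4.12 was bright enough to be tested only through the arrays labelled wild type, so its p-value is not separate support for a fall. The lists of other proteases were sampled in part, since only 9 of 19 papain-like and 19 of 24 subtilase genes listed had a probe set of their own in that annotation.

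Root markers were lower in the arrays labelled ASL9-ox in 2 of 3 tested genes, where 17.0% of all probe sets tested fell. Of these 3, PYK10 (AT3G09260), a beta-glucosidase gene of roots and hypocotyls, and the peroxidase gene AT5G17820 fell, and EXPA18 did not pass. AT5G17820 went from 34.7 ± 5.57 to 1.95 ± 0.85 (SD, n = 3 per group), the latter below 16. It was bright enough to be tested only through the arrays labelled wild type. The summed signal of the 5 measured root markers was 2891 to 3215 on the arrays labelled wild type and 417 to 472 on those labelled ASL9-ox, nearly all of it from PYK10. The root hair expansin genes EXPA7 and EXPA18 were at most 9.84 and 13.3 on any array, and AT3G49960 was at most 0.594. The part of root RNA in the changes of the protease genes was not tested, and in such whole samples fewer cells of a type and less RNA per cell cannot be told apart.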

How the data were processed

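Transcript levels of 6 samples, 3 per group, were read from the table of intensity values that the authors deposited. Per the submitters' processing notes, these intensity values came from MAS5 and GCOS, whose versions are not given there. Trimmed means were 100.01 on every array, so a change common to all transcripts cannot be seen. Of 22810 probe sets, the platform annotation paired 13513 with 1 gene and 503 with several, and 8794 were unnamed here. Of the first, 13484 matched the RefSeq gene table (TAIR10.1), which gave current symbols.

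After the transformation log2(signal + 16), 64 control probe sets were left out, as were the dimmest 25% of the rest (by mean log2 value). The remaining 17059 were tested with limma 3.58.1 under R 4.3.3 (lmFit, then eBayes with a trend on intensity; two-sided; Benjamini-Hochberg; threshold 0.05), a procedure tested on simulated data. Separate cultures are not named for the replicates, so the p-values describe the spread between these samples alone, which may be technical, and 3 arrays per group limit the precision. Members, lists and role groups were chosen with earlier results of these data known, and the role groups rest on background knowledge of the family, not on a sequence comparison. Values on every array are given for up to 12 members with the largest rise and 12 with the largest fall past the threshold and for those next to it; other proteases are named up to 3 per list by size of change. Same-numbered arrays deviated from their group means with correlations of -0.12, -0.06 and 0.02, and the numbers were therefore not read as pairs. Alternatives were quantile normalization, centring on medians or hybridization controls, pseudocounts of 1 and 64, other filters and variance models, array weights, a block for the replicate number, single arrays left out and a threshold of 0.01. Figures were drawn with matplotlib 3.10.9.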

Additional observations from a re-analysis of the deposited data

How the results depend on the processing

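With 3 arrays per group and no detection calls, small changes and dim genes are the least certain. Over 18 alternatives the 37 tested members gave 655 values, of which 588 kept their direction and their side of the threshold, 55 no longer passed, 5 newly passed and 7 changed direction. Of the 24 members that passed, 14 did so at 0.05 under every alternative that tested them, 10 falls and the 4 rises named above. These alternatives numbered 17, or 16 for AT5G19110 and AT2G03200. For AT5G19110, bright enough to be tested only through the arrays labelled wild type, repeated passing is not separate support for a fall. No such share of all probe sets is set beside the 14, so this count is no test of the family. Of the 24, 0 changed direction. With hybridization controls as the centre, 2353 probe sets were higher (4203 as reported) and 4 members (12 as reported), and at a threshold of 0.01 these numbers were 2540 and 6. With a pseudocount of 64, which shrinks folds of dim genes, 4 members changed at least 2-fold (8 as reported). The median log2 fold change of the members, 0.095 as reported, was 0.054 with centring on medians and 0.0026 with centring on hybridization controls. Single arrays left out gave 3222 to 3810 probe sets higher and 2372 to 2589 lower, 8 to 11 members higher, 10 to 13 lower and 7 or 8 changed at least 2-fold, and a median of 0.032 to 0.149. Without wild type replicate 3, and likewise without ASL9-ox replicate 1, 8 members were higher; without wild type replicate 2, 9 were higher and 11 lower. A block for the replicate number (replicate block) gave 8 members higher and 12 lower. The values that changed direction belonged to 5 genes that did not pass. AT3G50050 was -0.044 with centring on hybridization controls and -0.024 to 0.116 with single arrays left out, where AT1G65240 was -0.014 to 0.27, AT1G62290 -1.86 to 0.28, AT5G10770 -0.46 to 0.045 and AT1G79720 -0.025 (without ASL9-ox replicate 2; -0.0029 without wild type replicate 2) to 0.23. Apart from the pseudocount and the stricter threshold, the cause was not tested. Averaging the probe sets of a gene gave no separate value, because each member had 1 probe set.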
